A study of Neurospora crassa OR74A with 13 samples.

Results

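The genes described here were low on sucrose and high to a similar degree on crystalline cellulose and on no carbon source in the filamentous fungus Neurospora crassa. They were chosen from the measured values. Each gene's FPKM (fragments per kilobase of transcript, scaled to the size of the library) was increased by 1, and a gene was kept when the lowest of the 6 wild-type (WT) libraries on Avicel and on no carbon was at least 16 times the highest of the 3 WT libraries on sucrose. The geometric means of WT Avicel and WT no carbon also had to lie within 2-fold of each other. Of 9733 genes, 155 (1.59%) met the first condition and 93 met both; 19 of the rest were over 2-fold higher on Avicel and 43 over 2-fold higher on no carbon. The values of all 9 WT triplicate libraries made this choice, so the differences among WT Avicel, WT no carbon and WT sucrose are given as a description and carry no test. The other 4 libraries had no part in it. The size of the group depends on single libraries. Leaving out each of the 9 triplicate libraries in turn, the rule kept between 94 and 143 genes. Leaving out a library can only loosen the 16-fold condition, so a larger group is partly built in. Without WT Avicel replicate 1 the rule kept 143 genes. Of those 143 genes, 85 were among the 93.

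Polyadenylated RNA was sequenced in 13 libraries. The strain TBGK carries deletions of 3 beta-glucosidase genes, gh3-4 (NCU04952), gh1-1 (NCU00130) and gh3-3 (NCU08755), whose products split cellobiose into glucose, and it was measured with 1 library for each of Avicel, cellobiose and sucrose. The WT reference strain (FGSC 2489) was measured in 3 biological replicates each for Avicel, no carbon source and sucrose, and in 1 library for cellobiose. All cultures, controls included, were grown for 16 h in sucrose medium, washed and shifted for 4 h to the new medium. Avicel is a microcrystalline cellulose, and cellobiose is the glucose dimer released from it. The labels give no clone number and no mating type for TBGK and do not say whether a library pooled cultures. They mark the 9 triplicate libraries as repeats of an earlier submission, so that a difference between the 4 single libraries and the triplicates cannot be told apart from a difference between submissions.

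Fungi that grow on a preferred sugar keep many genes for the use of other substrates silent, a control known as carbon catabolite repression. In N. crassa the zinc-finger repressor CRE-1 is a central part of it. Loss of the preferred sugar lifts this repression, and starvation adds responses of its own, whereas cellulases also need an inducer released from cellulose. WT converts cellobiose into glucose with its beta-glucosidases; in strains that lack them cellobiose is known to act as an inducer of cellulase genes.

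Read depth was known for the triplicates only, at 515.5 to 6025.5 aligned megabases, with the lowest values in replicate 1 of WT sucrose and of WT Avicel. The deposited tables of the single libraries give no depth. Between 718 and 2341 genes per library were listed at 0. The 3 deleted genes had 0 to 9.21 FPKM in the TBGK libraries, and the lowest WT value on Avicel was 189.4 FPKM. No other strain or cell type is named in the labels, and developmental markers are given with the gene lists below.

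The 93 genes spanned a wide range of expression. Averaged over the 6 WT libraries on Avicel and no carbon, 26 genes had at least 1000 FPKM, 38 had 100 to 1000 FPKM and 29 had less than 100 FPKM, between a lowest mean of 22.2 and a highest of 26067. The median gene of the group had 128 FPKM in TBGK on Avicel, 247 in TBGK on cellobiose and 5.003 in TBGK on sucrose. In WT replicates 1, 2 and 3 that median was 238, 303 and 296 on Avicel, with 263, 279 and 343 on no carbon, compared to 26.6 on cellobiose and 0, 2.84 and 1.92 on sucrose. The median over all genes lay between 70.9 and 92.7 FPKM in every library, so the typical gene of the group lay above the typical gene of the genome in TBGK on Avicel or cellobiose and in WT on Avicel or no carbon, and below it elsewhere. As a share of all FPKM, the 93 genes made up 2.11% in TBGK on Avicel, 5.10% in TBGK on cellobiose and 0.0304% in TBGK on sucrose. The WT shares were 1.87%, 2.89% and 2.85% on Avicel, 2.92%, 3.18% and 3.90% on no carbon, 0.574% on cellobiose and 0.0177%, 0.0181% and 0.0118% on sucrose. These are bulk samples, in which fewer cells of a type and less RNA per cell cannot be told apart.

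**Figure D1:**
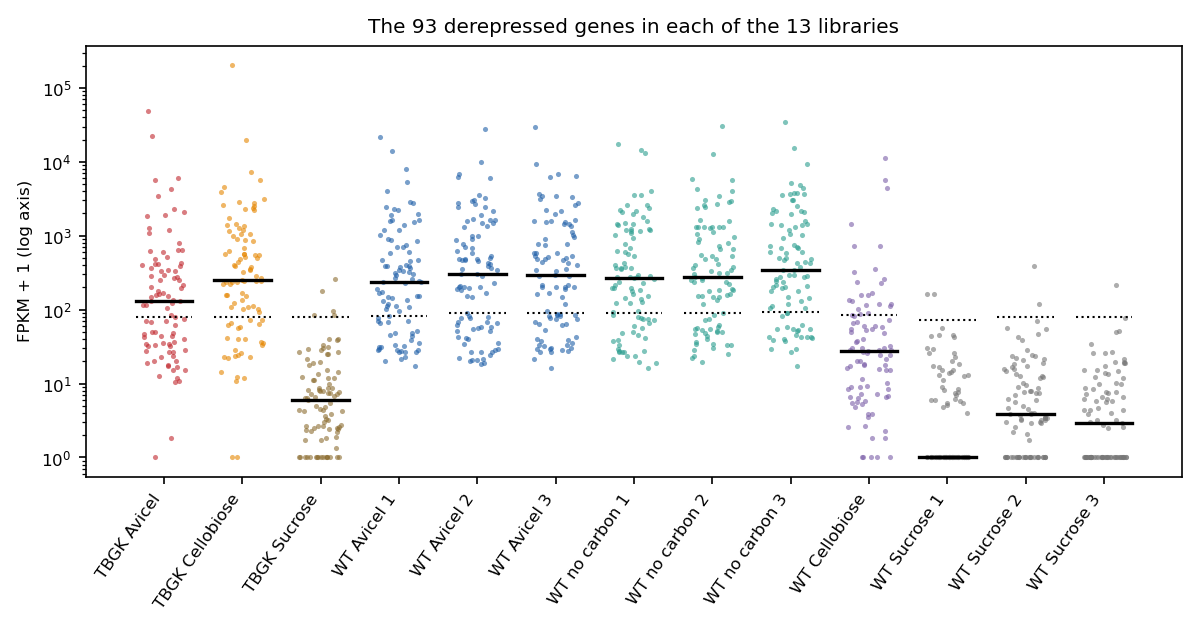
FPKM + 1 (log axis) of the 93 derepressed genes, 1 point per gene, in each of the 13 libraries; solid bars mark the median of the group and dotted bars the median of all genes in that library. The solid bar lies above the dotted bar for TBGK with Avicel or cellobiose and for WT with Avicel or no carbon, and below it for TBGK with sucrose and for WT with cellobiose or sucrose.

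On sucrose many of these genes were not detected. In WT, 29 of the 93 were listed at 0 in all 3 sucrose libraries, and 15 of those 29 were also at 0 in TBGK on sucrose. The 29 had a median of 41.1 FPKM over the 6 WT libraries on Avicel and no carbon (called the derepressed WT libraries from here on), with a range of 22.2 to 1056. The count of zeros moved with depth: 54, 29 and 43 of the 93 were at 0 in sucrose replicates 1, 2 and 3, and replicate 1 was the shallowest. No count behind these zeros can be recovered from FPKM, so they are listed as 0 with no limit attached. In the single libraries, 1 gene was at 0 in TBGK on Avicel, 2 in TBGK on cellobiose, 16 in TBGK on sucrose and 5 in WT on cellobiose. Over all 9733 genes, 1066, 1086, 1411 and 1335 were at 0 in the same order, so the TBGK sucrose share was close to that of all genes. In WT sucrose replicates 1, 2 and 3, 2341, 1645 and 1842 of all genes were at 0. All 93 passed the filter on low values used for the tests over all genes, which their high levels in 6 libraries guarantee.

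Genes near the limits differ little on either side of them. At the 16-fold limit the closest genes inside were NCU07140 (16.03-fold), NCU05844 (16.35-fold) and NCU05157 (16.85-fold), and the closest outside were NCU07474 (15.999-fold), NCU11601 (15.72-fold) and NCU11347 (15.64-fold). Where Avicel was higher, NCU05897 (1.97-fold over no carbon), NCU08635 (1.89-fold) and ccg-4 (1.86-fold) were inside, and NCU11995 (2.03-fold), NCU09776 (2.11-fold) and NCU05822 (2.20-fold) were outside. Where no carbon was higher, NCU02179 (1.9997-fold over Avicel), NCU05069 (1.98-fold) and NCU05037 (1.97-fold) were inside, and NCU09027 (2.01-fold), NCU07133 (2.018-fold) and NCU06156 (2.02-fold) were outside. All these ratios are of FPKM + 1, which understates the change of genes with low values.

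Gene symbols were available for 3 of the 93. The first is cat-2 (NCU05770, contig supercont10.7, 487350 to 490318), which encodes a catalase-peroxidase, an enzyme that removes hydrogen peroxide. cat-2 had 486 FPKM in TBGK on Avicel, 2299 in TBGK on cellobiose and 18.6 in TBGK on sucrose. The WT libraries held 1949.6, 1682 and 1587 FPKM on Avicel, 2588, 2627 and 3828 on no carbon, 260.0 on cellobiose and 41.3, 15.7 and 11.1 on sucrose. Every library on Avicel, no carbon or cellobiose lay above every sucrose library, and WT on cellobiose was the lowest of them. On cellobiose cat-2 was 3.14 log2 units higher in TBGK than in WT on the log2(FPKM + 1) scale used for all such differences.

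The second is gh28-2 (NCU06961, contig supercont10.4, 4670149 to 4671713), which encodes a polygalacturonase of glycoside hydrolase family 28, an enzyme that cuts pectin. gh28-2 had 121 FPKM in TBGK on Avicel, 898 in TBGK on cellobiose and 0 in TBGK on sucrose. WT values were 699.6, 478 and 516 FPKM on Avicel, 684, 337 and 675 on no carbon, 24.8 on cellobiose and 0 in all 3 sucrose libraries. It was listed at 0 in every sucrose library of both strains and was highest in TBGK on cellobiose. Pectin was not among the carbon sources named in the labels. Its transcript model overlaps that of NCU11797 by 54 bases. The deposited tables do not say whether counting used strand, so reads of both genes may be mixed within those bases. NCU11797 was far lower, with 2.47 FPKM in TBGK on Avicel, 20.5 in TBGK on cellobiose and 0 in TBGK on sucrose. In WT, NCU11797 had 9.05, 13.7 and 11.7 FPKM on Avicel, 14.4, 6.31 and 11.7 on no carbon and 0 on cellobiose and sucrose.

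The highest levels of the group belonged to NCU10040 (contig supercont10.4, 5939026 to 5940994), which the reference table leaves without a symbol. NCU10040 had 48324 FPKM in TBGK on Avicel, 203070 in TBGK on cellobiose and 261 in TBGK on sucrose. Its WT levels were 21678, 27930 and 29284 FPKM on Avicel, 13195, 30261 and 34053 on no carbon, 5729.8 on cellobiose and 164, 392 and 213 on sucrose. It was the most abundant of all transcripts in TBGK on cellobiose, where it took 3.52% of the summed FPKM; without it the other 92 genes made up 1.58%. The TBGK cellobiose value was above all 6 WT libraries on Avicel and no carbon, and the WT cellobiose value was below all 6 and above all 3 WT libraries on sucrose.

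Other abundant genes behaved in different ways. NCU06977 had 6031 FPKM in TBGK on Avicel, 7197 in TBGK on cellobiose and 29.7 in TBGK on sucrose. WT mycelia had 5327, 9921 and 9388 FPKM on Avicel, 14539, 12920 and 15515 on no carbon, 731 on cellobiose and 21.8, 41.2 and 6.14 on sucrose. It followed the common pattern, with WT on cellobiose between the sucrose libraries and the rest. NCU03415 had 5618 FPKM in TBGK on Avicel, 4531 in TBGK on cellobiose and 84.3 in TBGK on sucrose. WT libraries gave 3976, 6761 and 6142 FPKM on Avicel, 17335, 5620.5 and 9331 on no carbon, 4395 on cellobiose and 44.7, 55.9 and 48.9 on sucrose. Here WT on cellobiose lay within the range of the 6 derepressed WT libraries, between the lowest and the middle Avicel replicate. NCU05897 had 22532 FPKM in TBGK on Avicel, 19918 in TBGK on cellobiose and 26.1 in TBGK on sucrose. For WT the values were 14027, 1609.9 and 1522 FPKM on Avicel, 1088, 4077 and 1007 on no carbon, 11341 on cellobiose and 14.2, 12.6 and 12.4 on sucrose. NCU05897 was also high in WT on cellobiose, and it had the widest spread of the group among the Avicel replicates: replicate 1 was 9.21 times the lowest replicate on the FPKM + 1 scale. Its TBGK libraries on Avicel and cellobiose were above all WT libraries on the same or any other medium.

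**Figure D2:**
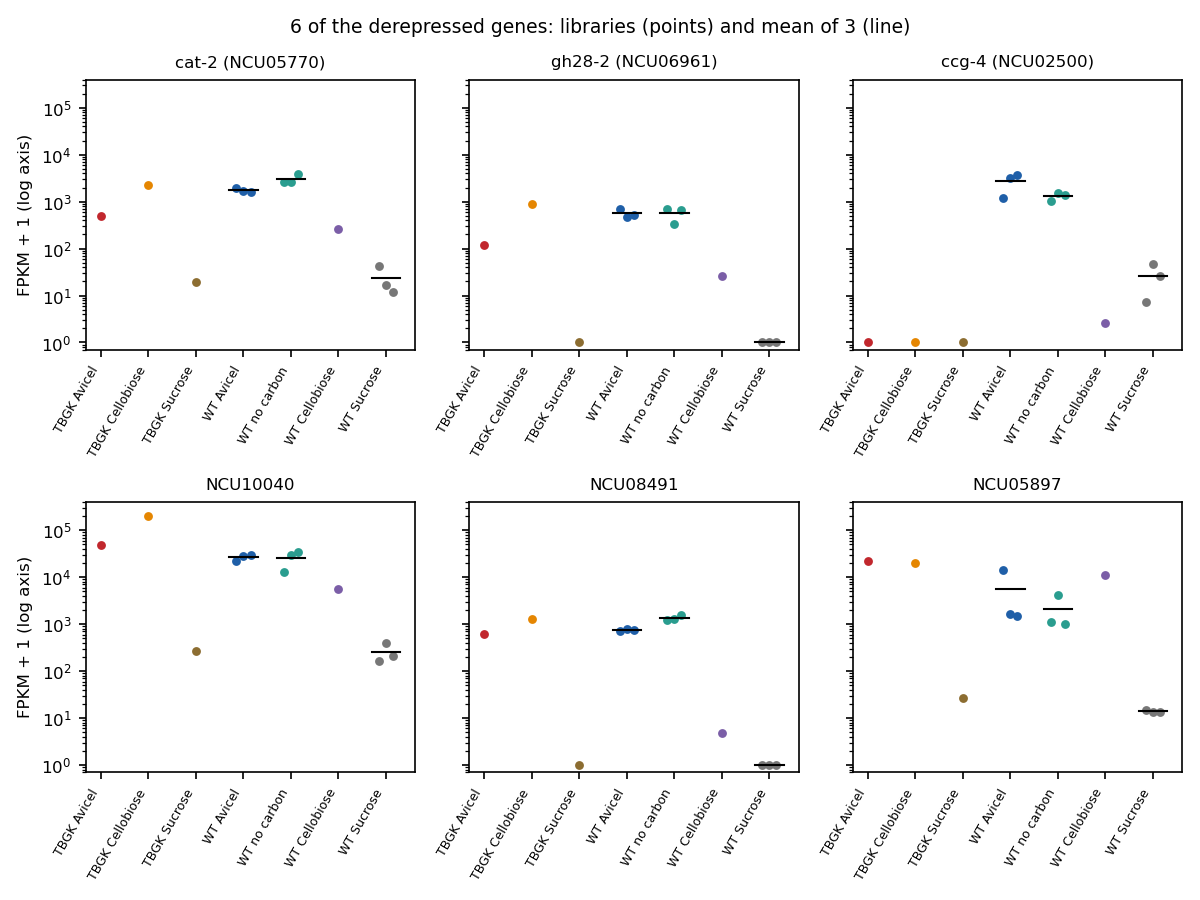
FPKM + 1 (log axis) of 6 of the derepressed genes by strain and medium; each point is a library and each line the mean of 3 WT replicates. For cat-2, gh28-2, NCU10040 and NCU08491 the WT cellobiose library lies below TBGK on cellobiose and below the WT Avicel and no-carbon libraries, ccg-4 is at 0 in all TBGK libraries, and the WT cellobiose library of NCU05897 (11341 FPKM) lies within the range of the WT Avicel libraries.

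The largest ratio to sucrose belonged to NCU08491 (contig supercont10.2, 3476838 to 3477441), whose lowest derepressed WT library was 698 times its highest WT sucrose library after the addition of 1 FPKM. NCU08491 had 618 FPKM in TBGK on Avicel, 1268 in TBGK on cellobiose and 0 in TBGK on sucrose. The levels in WT were 697, 783 and 751 FPKM on Avicel, 1238, 1299.6 and 1568 on no carbon, 3.83 on cellobiose and 0 in all 3 sucrose libraries. TBGK on cellobiose lay within the range of the 6 derepressed WT libraries, and WT on cellobiose was near 0. NCU08856 was next at 415-fold, ahead of gh28-2 at 338-fold. NCU08856 had 639 FPKM in TBGK on Avicel, 1399.8 in TBGK on cellobiose and 2.04 in TBGK on sucrose. The WT libraries held 1888, 1578 and 2167 FPKM on Avicel, 1475, 2688 and 3081 on no carbon, 29.7 on cellobiose and 0, 2.55 and 0 on sucrose. Its TBGK libraries on Avicel and cellobiose were both below the lowest WT Avicel or no-carbon value. NCU01231 was at 290-fold, and both its TBGK libraries outside sucrose lay among the derepressed WT values. NCU01231 had 1824 FPKM in TBGK on Avicel, 2234 in TBGK on cellobiose and 1.63 in TBGK on sucrose. WT values were 2293, 2425 and 1651 FPKM on Avicel, 2112, 2426 and 3563 on no carbon, 20.3 on cellobiose and 4.52, 4.70 and 2.91 on sucrose. On cellobiose it was 6.72 log2 units higher in TBGK than in WT. NCU02188 was at 271-fold and NCU00988 at 233.5-fold, and they showed a wider gap between cellobiose and Avicel in TBGK. NCU02188 had 340.4 FPKM in TBGK on Avicel, 1749 in TBGK on cellobiose and 0.841 in TBGK on sucrose. Its WT levels were 1018, 1291 and 1419 FPKM on Avicel, 1237, 905 and 1422 on no carbon, 113 on cellobiose and 0, 2.35 and 1.53 on sucrose. TBGK on cellobiose was above every WT library of this gene. NCU00988 had 149.8 FPKM in TBGK on Avicel, 863 in TBGK on cellobiose and 1.42 in TBGK on sucrose. WT mycelia had 871, 1365 and 1552 FPKM on Avicel, 1167, 1055 and 1197 on no carbon, 54.2 on cellobiose and 0, 2.73 and 2.21 on sucrose. Both had their lowest TBGK value outside sucrose on Avicel.

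The rule set a gap of at least 16-fold to sucrose but no limit on the spread between replicates. The widest replicate range of any of the 93 genes was 9.21-fold on Avicel, 4.12-fold on no carbon and 12.4-fold on sucrose, on the FPKM + 1 scale. Avicel and no carbon were held within 2-fold, so for some genes replicates differed more than these media did. The highest Avicel replicate was a median of 1.52 times the lowest over the group, and 22 of the 93 genes differed by more than 2-fold among the 3 Avicel replicates, against 25.1% of all genes. On no carbon the median was 1.71-fold and 29 genes differed by more than 2-fold, against 16.6% of all genes. On sucrose the median was 1.4-fold and 33 genes differed by more than 2-fold, against 22.7% of all genes. Replicate 1 was the lowest of the Avicel replicates for 59 genes, and replicate 3 was the highest of the no-carbon replicates for 62. Compared with the mean of replicates 2 and 3, Avicel replicate 1 was at least 2-fold higher for 6 genes (NCU02526, NCU05639, NCU05897, NCU07390, NCU09170 and NCU09470) and at least 2-fold lower for 13. Counts of genes highest, lowest or 2-fold apart in a given replicate were not taken over all genes. They are therefore not read as a trait of the 93. The labels name no batch, and what the difference between Avicel replicates comes from was not tested.

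In TBGK, which took no part in the choice of the genes, nearly all of them were again higher without sucrose. On Avicel 91 of the 93 were at least 2-fold higher than in TBGK on sucrose, 1 (NCU05382) was at least 2-fold lower and 1 (ccg-4) was neither, with a median difference of 4.51 log2 units or 22.7-fold. Over all 9733 genes, 25.6% were at least 2-fold higher and 17.1% at least 2-fold lower in the same comparison, and the median difference was 0. On cellobiose 90 of the 93 were at least 2-fold higher than in TBGK on sucrose, NCU05382 was at least 2-fold lower and ccg-4 and NCU02483 were neither, with a median of 5.34 log2 units or 40.6-fold; over all genes 27.4% were higher and 19.3% lower. Both comparisons share the single TBGK sucrose library, so they are not separate evidence, and with 1 library per group they have no replicate check.

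A fit over all 13 libraries with limma, in which the spread of each single library was taken from the WT triplicates that the rule had used, is given as a description and not as an independent test, also where its calls are named below. It called 85 genes of the group higher and 1, NCU05382, lower on Avicel at a Benjamini-Hochberg adjusted p under 0.05, against 12.8% and 9.76% of the 8822 genes tested. On cellobiose it called 88 higher and the same gene lower, against 15.9% and 12.6%. Without WT Avicel replicate 1 the rule kept 143 genes, of which 134 were at least 2-fold higher in TBGK on Avicel and 137 in TBGK on cellobiose than in TBGK on sucrose.

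The genes that met the same 16-fold limit but differed between Avicel and no carbon gave a setting for these values. The 19 genes higher on Avicel had a median difference of 5.69 log2 units for TBGK Avicel against TBGK sucrose and 6.04 for TBGK cellobiose against TBGK sucrose. They include gh3-4 and gh3-3, 2 of the 3 genes deleted in TBGK. Every TBGK median of the 19, here and below, therefore takes in genes that TBGK lacks. The 43 genes higher on no carbon had medians of 4.08 and 5.86 in the same order. These neighbouring groups, chosen by the same WT libraries, were thus also high in TBGK without sucrose.

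In WT on cellobiose the 93 genes were at an intermediate level. Against the mean of the WT sucrose libraries 83 were at least 2-fold higher and 1 (ccg-4) was at least 2-fold lower, with a median of 2.85 log2 units or 7.20-fold. Over all genes 19.3% were higher and 7.14% lower. Against WT on Avicel 89 were at least 2-fold lower and 2 (NCU05844 and NCU05897) higher, with a median of -2.96, where 17.6% of all genes were lower and 14.5% higher. Against WT on no carbon 91 were at least 2-fold lower and 1 (NCU05897) higher, with a median of -3.36, where 24.0% of all genes were lower and 14.4% higher. The median over all genes was -0.15 in this comparison and 0 in the others. The WT triplicates that served as the comparison were those that chose the genes, so these differences carry no test and nothing is read from their counts against those of all genes. In 84 of the 93 genes the WT cellobiose library lay above all 3 WT sucrose libraries and below all 6 WT libraries on Avicel and no carbon, which held for 15.9% of all genes; the rule itself set the wide gap between those libraries. Without WT Avicel replicate 1, 129 of 143 genes were at least 2-fold higher on cellobiose than on sucrose and 140 of 143 lower than on no carbon.

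The exceptions are few. WT on cellobiose was not below all 6 derepressed libraries for NCU03415, NCU05844 and NCU05897. NCU05844 had 60.7 FPKM in TBGK on Avicel, 124 in TBGK on cellobiose and 7.65 in TBGK on sucrose. WT libraries gave 28.2, 19.04 and 15.3 FPKM on Avicel, 18.2, 53.7 and 54.4 on no carbon, 67.3 on cellobiose and 0 in all 3 sucrose libraries. For NCU05844 the WT cellobiose value exceeded all 6. WT on cellobiose was not above every sucrose library for 6 genes, ccg-4, NCU02876, NCU05382, NCU07140, NCU07390 and NCU07751. Apart from ccg-4 they were listed at 0 in WT on cellobiose and in all WT sucrose libraries. Of these, NCU02876, NCU07140, NCU07390 and NCU07751 had 9.70, 21.5, 27.7 and 242 FPKM in TBGK on cellobiose.

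Neither of the cellobiose libraries, of TBGK and of WT, had a part in choosing the genes. Of the 93, 87 were at least 2-fold higher in TBGK, 1 (ccg-4) was at least 2-fold lower and 5 (NCU03415, NCU05382, NCU05844, NCU05897 and NCU09771) were neither, with a median of 3.13 log2 units or 8.77-fold. Over all genes 20.1% were at least 2-fold higher and 14.2% lower, with a median of 0. With 1 library on each side there is no replicate check. The limma fit over 13 libraries, whose spread came from the triplicates that did choose the genes, called 61 of the 93 higher in TBGK and 0 lower, against 6.25% and 5.36% of all genes tested, and 83 had an unadjusted p under 0.05. Among the 87, NCU08491 had 1268 FPKM in TBGK and 3.83 in WT, a difference of 8.04 log2 units. NCU01231 had 2234 FPKM in TBGK and 20.3 in WT, a difference of 6.72. Both genes were also among those with the largest ratio to sucrose. NCU08428 had 566 FPKM in TBGK and 8.39 in WT, a difference of 5.92. NCU10040 had 203070 FPKM in TBGK and 5729.8 in WT, a difference of 5.15. At the other end NCU03415 had 4531 FPKM in TBGK and 4395 in WT, a difference of 0.04, and NCU05897 differed by 0.81 and NCU05844 by 0.87.

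The gap between the strains on cellobiose was also set against their gap on sucrose. The difference of differences, TBGK cellobiose minus TBGK sucrose less WT cellobiose minus WT sucrose, had a median of 2.56 log2 units over the 93 genes and -0.06 over all 8822 genes tested. The rule used the WT sucrose libraries, and the other 3 terms have 1 library each, so these values carry no test. Among genes detected in all the libraries involved, the highest values were 7.63 for NCU01231, 6.15 for NCU08428 and 6.03 for NCU02097. NCU05078 with 5.17 and NCU10040 with 5.02 came next. The 19 genes higher on Avicel and the 43 higher on no carbon had medians of 3.32 and 3.78 log2 units for TBGK against WT on cellobiose, against 3.13 for the 93 genes. The 19 include gh3-4 and gh3-3, which are deleted in TBGK.

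**Figure D3:**
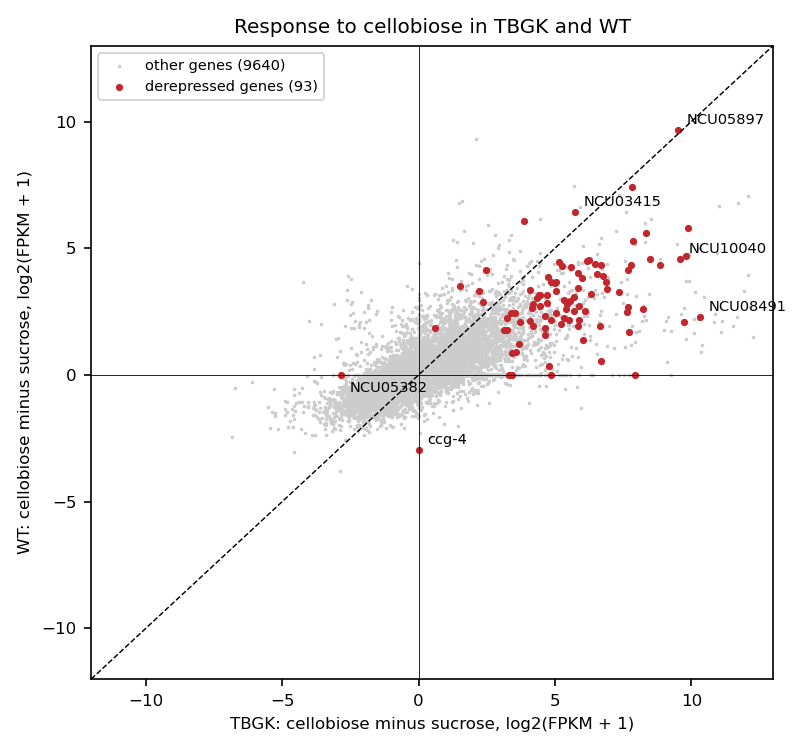
Difference between cellobiose and sucrose on the log2(FPKM + 1) scale in TBGK (x axis) and in WT (y axis); each red point is 1 of the 93 derepressed genes, each grey point 1 of the other 9640 genes, and the dashed line marks equal differences. Most red points lie right of the line, with NCU08491 far from it, NCU05897 and NCU03415 close to it or above it, and ccg-4 and NCU05382 at or left of 0 in TBGK.

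Within TBGK the genes tended to be higher on cellobiose than on Avicel. At least 2-fold higher values on cellobiose were seen for 48 of the 93 and at least 2-fold lower values for 3, with a median of 1.02 log2 units or 2.02-fold; 9.34% of all genes were higher and 7.82% lower. The limma fit over 13 libraries called 0 of the 93 in either direction, while 30 had an unadjusted p under 0.05; over all 8822 genes 0.0113% were called higher and 0.0227% lower. Among the genes with the largest difference, NCU07751 had 242 FPKM on cellobiose and 30.8 on Avicel, gh28-2 had 898 and 121, and NCU08715 had 3165 and 515. The 3 genes at least 2-fold lower on cellobiose were NCU02483 with 11.2 FPKM on cellobiose and 38.8 on Avicel, NCU09785 with 38.9 and 128, and NCU02876 with 9.70 and 32. The 43 genes higher on no carbon in WT had a median of 2.05 log2 units in this comparison and the 19 higher on Avicel, with the deleted gh3-4 and gh3-3 among them, a median of 0.35. Without WT Avicel replicate 1 the rule kept 143 genes, of which 81 were at least 2-fold higher on cellobiose.

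TBGK on Avicel was somewhat below WT on Avicel. The median difference was -0.87 log2 units or 0.548-fold, 44 of the 93 were at least 2-fold lower and 4 higher (NCU05844 by 1.54, NCU05897 by 2.79, NCU09170 by 1.46 and NCU10070 by 1.30 log2 units), and 9.33% of all genes were lower and 13.9% higher. For 70 genes the TBGK value was below all 3 WT Avicel replicates, which held for 33.8% of all genes; for 14 it lay among them and for 9 above them. High WT Avicel values were part of the rule, which favours lower values in a library outside it, so there is no test and nothing is read from these counts against the shares of all genes. Without WT Avicel replicate 1 the rule kept 143 genes, of which 78 were at least 2-fold lower in TBGK.

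On sucrose the group was low in both strains. In TBGK the median of the group was 5.003 FPKM, against 79.66 over all genes, and the highest value was 261 FPKM, for NCU10040. There 64 of the 93 genes had less than 10 FPKM. The share of all genes below 10 FPKM was not counted, so nothing is read from that count. Against the mean of the WT sucrose libraries 26 genes were at least 2-fold higher and 1 (ccg-4) was at least 2-fold lower, with a median of 0.69 log2 units or 1.61-fold; 9.64% of all genes were higher and 2.30% lower. Low WT sucrose values were likewise part of the rule, so there is no test and nothing is read from the counts. Without WT Avicel replicate 1 the count was 50 of 143 genes, and without WT sucrose replicate 2 it was 47 of 130.

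Among the 4 libraries the rule did not use, the commonest order was TBGK on cellobiose, TBGK on Avicel, WT on cellobiose and TBGK on sucrose from high to low. It held for 71 of the 93 genes and for 14.1% of all genes. TBGK on cellobiose was the highest of the 4 for 74 genes, and for 28.4% of all genes. Set against the 6 derepressed WT libraries, TBGK on cellobiose lay within their range for 54 genes, above it for 18 and below it for 21. Over all genes the shares were 56.7%, 20.2% and 23.1% in the same order, and since the rule used those 6 libraries nothing is read from the difference. At least 100 FPKM was reached by 51 genes in TBGK on Avicel, 66 in TBGK on cellobiose and 20 in WT on cellobiose. The median of all genes in these libraries was 79.52, 79.2 and 84.15 FPKM. The share of all genes above 100 FPKM was not counted, so nothing is read from these counts.

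The third gene with a symbol departed from the rest. It is ccg-4 (NCU02500, contig supercont10.1, 2531838 to 2533391), a clock-controlled gene that encodes the pheromone precursor of strains of mating type A. ccg-4 had 0 FPKM in TBGK on Avicel, 0 in TBGK on cellobiose and 0 in TBGK on sucrose. For WT the values were 1210.5, 3252 and 3709.8 FPKM on Avicel, 1034, 1562 and 1409 on no carbon, 1.66 on cellobiose and 6.37, 45.2 and 25.1 on sucrose. WT libraries on Avicel and on no carbon were all far above the others, and the WT cellobiose value was below all 3 WT sucrose values. Other mating genes were read beside it. The mating-type A regulator gene matA-1 (NCU01958) was listed at 0 in all 3 TBGK libraries, and in WT it had 46.8, 283 and 337 FPKM on Avicel, 173, 167 and 241 on no carbon, 12.3 on cellobiose and 0, 9.58 and 7.56 on sucrose. The pheromone receptor gene pre-1 (NCU00138) had 8.21 FPKM in TBGK on Avicel, 6.51 in TBGK on cellobiose and 3.02 in TBGK on sucrose, and in WT 19.03, 218 and 248 on Avicel, 93.96, 107 and 157 on no carbon, 5.33 on cellobiose and 2.54, 12.3 and 10.1 on sucrose. The receptor gene pre-2 (NCU05758) had 22.5, 25.05 and 0 FPKM in the same TBGK libraries, with 12.2, 16.8 and 20.6 on Avicel, 18.3, 14.4 and 18.99 on no carbon, 1.79 on cellobiose and 0 in all 3 sucrose libraries of WT. The part of mating type in the ccg-4 values was not tested.

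NCU05382 (contig supercont10.2, 1470710 to 1471552) was the other gene that was not higher in TBGK without sucrose. NCU05382 had 0.846 FPKM in TBGK on Avicel, 0 in TBGK on cellobiose and 6.12 in TBGK on sucrose. The levels in WT were 27.3, 25.6 and 32.1 FPKM on Avicel, 25.8, 24.3 and 38.2 on no carbon, 0 on cellobiose and 0 in all 3 sucrose libraries. All WT values on Avicel and no carbon were above all others, yet in TBGK the sucrose library was the highest of the 3. Its annotated transcript overlaps that of NCU05383 by 88 bases, and without stated strand the reads of both cannot be told apart within those bases. NCU05383 had 61.9 FPKM in TBGK on Avicel, 34.3 in TBGK on cellobiose and 29.8 in TBGK on sucrose. In WT, NCU05383 had 53.2, 73.1 and 65.7 FPKM on Avicel, 52.9, 55.7 and 84.6 on no carbon, 31.7 on cellobiose and 27.8, 31.5 and 33.9 on sucrose. NCU02483 was higher in TBGK on Avicel but close to its sucrose level on cellobiose, with 38.8 FPKM in TBGK on Avicel, 11.2 in TBGK on cellobiose and 7.05 in TBGK on sucrose.

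Some of the genes lie next to each other. Of the 93, 25 (26.9%) had another of the 93 as an immediate neighbour on their contig, whereas 158 of the 9640 other genes (1.64%) had one of the 93 as a neighbour. They form 11 runs, 3 of which hold 3 genes. Positions are those of the deposited tables, and no source used here names their genome build. The first run, NCU08491, NCU08490 and NCU08489, spans 7687 bases (contig supercont10.2, 3476838 to 3484524). NCU08491 is described above. NCU08490 had 199 FPKM in TBGK on Avicel, 235 in TBGK on cellobiose and 7.67 in TBGK on sucrose. The WT libraries held 322, 617 and 583 FPKM on Avicel, 368, 407 and 471 on no carbon, 14.2 on cellobiose and 11.8, 11.6 and 9.09 on sucrose. Its WT cellobiose value was close to its WT sucrose values. NCU08489 had 33.3 FPKM in TBGK on Avicel, 34.9 in TBGK on cellobiose and 2.85 in TBGK on sucrose. WT values were 118, 199 and 202 FPKM on Avicel, 195, 298 and 178 on no carbon, 4.33 on cellobiose and 0, 2.84 and 0 on sucrose. All 3 were lower in WT on cellobiose than in TBGK on cellobiose, and in each WT library on Avicel or no carbon NCU08491 was the highest and NCU08489 the lowest of the 3.

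The second run, NCU09470, NCU09471 and NCU09472, spans 9678 bases on the same contig (4386697 to 4396374). It was expressed at a low level: the TBGK libraries had 27.3, 15.8 and 10.8 FPKM on Avicel, 32.1, 10.8 and 13.3 on cellobiose and 5.44, 0 and 0.331 on sucrose, in that order of genes. In WT, NCU09472 had 30.3, 27.2 and 28.4 FPKM on Avicel, 25.6, 48.4 and 38.8 on no carbon and 0.832 on cellobiose, and all 3 genes were at 0 in every sucrose library. The third run, NCU10070, NCU11825 and NCU10040, spans 12903 bases (contig supercont10.4, 5928092 to 5940994) and ends in the most abundant gene of the group. NCU10070 had 408 FPKM in TBGK on Avicel, 380.2 in TBGK on cellobiose and 5.003 in TBGK on sucrose. Its WT levels were 154, 199 and 146 FPKM on Avicel, 125, 338 and 149 on no carbon, 37.2 on cellobiose and 0, 5.93 and 1.79 on sucrose. Both TBGK libraries outside sucrose were above every WT library of this gene. NCU11825 had 43.5 FPKM in TBGK on Avicel, 91.9 in TBGK on cellobiose and 0 in TBGK on sucrose. WT mycelia had 25.6, 50.1 and 41.3 FPKM on Avicel, 37.7, 38.6 and 53.4 on no carbon, 14.7 on cellobiose and 0 in all 3 sucrose libraries. Both were at lower FPKM than NCU10040 in every library.

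**Figure D4:**
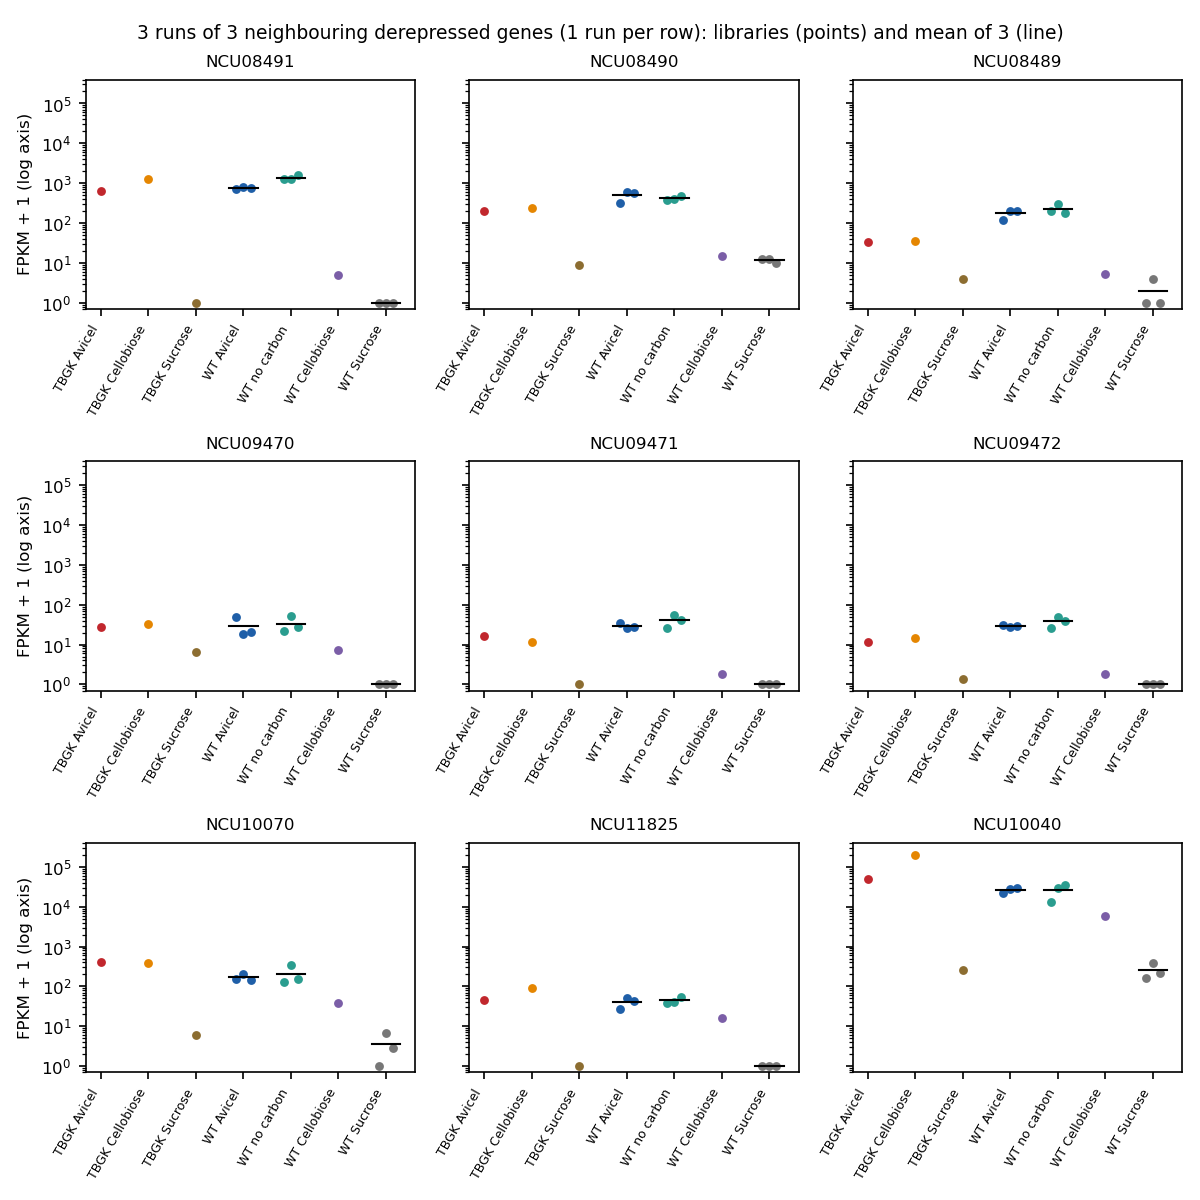
FPKM + 1 (log axis) of the genes in the 3 runs of 3 neighbouring derepressed genes, 1 run per row, by strain and medium; each point is a library and each line the mean of 3 WT replicates. In every panel the sucrose libraries of both strains are lowest or share the lowest values, and in each row the 3 genes differ in level.

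The 8 pairs were NCU02526 with NCU11476, NCU09358 with NCU09777, NCU09169 with NCU09170, NCU07274 with NCU07273, NCU09698 with NCU11613, NCU01138 with NCU01140, NCU01230 with NCU01231, and NCU05018 with NCU05017. Genes of a pair could differ in level and in course. NCU01230 and NCU01231 are 258 bases apart (contig supercont10.5, 3300578 to 3304405). NCU01230 had 266 FPKM in TBGK on Avicel, 1341 in TBGK on cellobiose and 32.1 in TBGK on sucrose, while NCU01231 had 1824, 2234 and 1.63. The first was thus higher on cellobiose than on Avicel and the second near the same level on both. NCU09358 and NCU09777 lay 21655 bases apart and moved alike in the Avicel replicates, with 109, 453 and 444 FPKM for NCU09358 and 228, 992 and 1030.5 for NCU09777, both lowest in replicate 1.

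Other features set the group less apart. The median transcript length was 1546 bases against 1599 over all genes, with a range of 195 to 4320, and 26 of the 93 were shorter than 1000 bases, against 22.2% of all genes. The genes were spread over 7 contigs, with 19 of the 1028 genes of supercont10.2 (1.85%) and 4 of the 1253 of supercont10.3 (0.319%) as the highest and lowest shares. The models of 7 genes overlap another gene by 9 to 132 bases (NCU02097, NCU03313, NCU05382, NCU06803, NCU06961, NCU08516 and NCU11866), and their values are uncertain to that extent.

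The 93 are a small part of all 9733 genes, so nothing is read from how few genes of a list are among them. Of the genes in 15 lists for carbon use, starvation and development, 1 was among the 93. That gene, ccg-4, comes from a list of clock-controlled genes; in each list below, calls are limma's over the 9 WT triplicate libraries, at an adjusted p under 0.05, and over all genes 33.9% rose and 24.5% fell on Avicel against sucrose and 40.2% rose and 24.1% fell on no carbon against sucrose. All 93 genes rose in both comparisons, which the rule fixed. On Avicel against no carbon, where 3.90% of all genes rose and 1.72% fell, 0 of the 93 rose and 1 (NCU08491) fell, and nothing is read from these counts. Of 7 genes found for carbon repression and glucose signalling, 3 rose and none fell on Avicel, and 2 rose and 1 fell on no carbon. Its best known glucose-repressible gene, ccg-1 (NCU03753), rose in both, by 6.87 (SE 0.67, adjusted p = 4.11e-05 by limma) and 8.12 log2 units (SE 0.67, adjusted p = 1.52e-05 by limma). It missed the group because no carbon was more than 2-fold above Avicel. The repressor gene cre-1 (NCU08807) had 652 FPKM in TBGK on Avicel, 450.4 in TBGK on cellobiose and 657 in TBGK on sucrose. For WT, cre-1 had 699.5, 113 and 139.9 FPKM on Avicel, 189.8, 424 and 121 on no carbon, 1712 on cellobiose and 566, 551 and 649.7 on sucrose, and its difference from sucrose passed the test in neither comparison (adjusted p = 0.107 on Avicel and 0.089 on no carbon by limma). WT on cellobiose was the library with the highest cre-1 value.

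Lists of induced and starvation genes took other courses. All 15 cellulase and polysaccharide monooxygenase genes rose on Avicel and 8 rose and 1 fell on no carbon, so that 14 of the 15 were also higher on Avicel than on no carbon; cbh-1 (NCU07340), the major cellobiohydrolase gene, had 186620, 86756 and 104215 FPKM on Avicel and 116, 103 and 123 on no carbon. All 3 regulators of cell wall degradation that were found (clr-1, clr-2 and xlr-1) rose in both comparisons, and xlr-1 was among the 19 genes with the same 16-fold gap that were higher on Avicel. Of 12 conidiation genes, 9 rose on Avicel and 10 on no carbon and none fell; 4 of them met the 16-fold limit and were over 2-fold higher on no carbon. Those 12 were listed here as markers of aerial hyphae and spores, but trx and fld passed the test in neither comparison. On sucrose trx had 544, 712 and 674 FPKM in WT replicates 1, 2 and 3, a large part of the sucrose sums given below. The sucrose sums are therefore not read as a measure of development. The hydrophobin gene eas (NCU08457) had 9298 FPKM in TBGK on Avicel, 29184 in TBGK on cellobiose and 72.1 in TBGK on sucrose, and in WT 34619.9, 20371 and 17326 on Avicel, 206272, 78251 and 65514 on no carbon, 18527 on cellobiose and 62.5, 388 and 155 on sucrose. Of the 12 markers, 7 were at least 2-fold higher in TBGK on Avicel than in TBGK on sucrose and 6 in TBGK on cellobiose, and 10 in WT on cellobiose than in WT on sucrose. Their summed level was 13149.5 FPKM in TBGK on Avicel, 41039.6 in TBGK on cellobiose and 1251 in TBGK on sucrose. In WT it was 41932, 24944 and 21725 FPKM on Avicel, 215591, 92978 and 85978 on no carbon, 20404 on cellobiose and 1062, 1518 and 1196 on sucrose. Every library outside sucrose had a higher sum than every sucrose library, but eas made up most of each sum outside sucrose. The WT cellobiose sum, just below the lowest WT Avicel sum, therefore does not stand for the other markers. On WT cellobiose con-6, con-8 and con-10 had 10.8, 124 and 65.4 FPKM, against lowest WT Avicel values of 517, 1076 and 158. Markers con-13, acon-3 and trx were also below all 3 WT Avicel libraries, fl, fld and csp-1 were above them, and csp-2 and cat-1 lay among them. The spore gene con-13 was listed at 0 in all 4 sucrose libraries, con-10 in WT sucrose replicates 1 and 3, and con-6 and con-8 in WT sucrose replicate 1. The part of development in the values of the 93 genes was not tested.

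For the other lists the counts are given for Avicel and then for no carbon, both against sucrose. Of 7 sugar transport and sucrose cleavage genes 4 rose and 1 fell, and then 5 rose and 1 fell. Of 7 starch degradation genes 5 rose in each, none fell. Of 10 clock-controlled genes 5 rose, and then 7 rose and 1 fell. Of 12 genes of light response and carotenoids 6 and then 7 rose. Of 8 genes listed for the glyoxylate cycle, gluconeogenesis and acetate use 2 rose and 2 fell, and then 5 rose and 2 fell; this list holds acon-2, a symbol used for a conidiation gene. Of 20 peroxisome genes 2 rose and 4 fell, and then 8 rose and 3 fell. Both autophagy genes rose in each comparison and both fatty acid synthesis genes fell in each. Of 6 alternative respiration genes 2 fell on Avicel, and 2 rose and 2 fell on no carbon. Of 5 quinic acid cluster genes none passed on Avicel and 1 rose on no carbon. All 3 genes deleted in TBGK rose in both. Less than the full list was found for carbon repression, regulators, sugar transport, starch degradation, clock, quinic acid and fatty acid synthesis, because their other symbols are not in the reference table.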

How the data were processed

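The authors deposited FPKM values. Per the submitters' processing notes the tools were TopHat and Cufflinks (version 0.9.3); the genome build, the TopHat version and the use of strand were not given in the sources used here. Per the file headers the triplicate tables contain a coverage column (mean depth of reads over a transcript), which the authors deposited per transcript and which was multiplied by transcript length here to give depth. FPKM was summed per gene. The rule for the 93 genes, the gene lists and the tests were chosen with earlier results of these data known. Genes named in the text were those with a symbol, those at the top or bottom of the stated rankings, those next to a limit of the rule and neighbours on a contig; other genes named, such as those that break a stated pattern, were chosen after their values were seen. Symbols came from a RefSeq table of assembly NC12, used for names alone, in which 88 of the 93 and 9016 of 9733 genes had an entry. No product names or sequences were used here, so genes without a symbol are given without a role and no sequence is printed.

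Differences were taken on log2(FPKM + 1). Comparisons with 1 library on a side had no test; a fold of at least 2 was counted, replicates being averaged on the log scale. WT triplicates were compared with limma 3.58.1 (intensity trend, R 4.3.3) over the 8759 genes that reached an FPKM of 1 in 3 or more of the 9 libraries, with Benjamini-Hochberg adjustment and a threshold of 0.05; p-values measure the spread between the biological replicates the labels name. An alternative limma fit held all 13 libraries (8822 genes) and 1 mean per group. Its spread came from the triplicates that chose the genes, so its calls are a description. Its counts for comparisons against those triplicates are given only among the alternatives at the end, and nothing is read from them. On simulated data for WT Avicel against sucrose over 8759 genes, the test found 82 of 100 genes given a change of 2 log2 units and 95 of 100 given a change of 5, with 4.32% false calls. For the 13-library fit of TBGK Avicel against TBGK sucrose over 8822 genes it found 43 and 86 of 100, with 4.44% false calls. The simulated single libraries were given the spread of the WT triplicates, which is what the fit assumes. The simulation therefore cannot give the error rate of calls on the real single libraries. Only the genes given a change differed in it, all upward, and they were far fewer than the genes called in the data. Alternatives were the pseudocount, the limits of the rule, quantile and median-of-ratios scaling, the fold counted, filters on low values and leaving out each triplicate library. Tables were made with pandas 2.3.3 and numpy 2.4.6 in Python 3.11.15, and plots with matplotlib 3.10.9.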

Additional observations from a re-analysis of the deposited data

Results flagged for a closer look

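NCU05382 was higher on Avicel than on sucrose in WT but not in TBGK. In TBGK it was lower on Avicel than on sucrose, by -1.95 log2 units with 0.846 FPKM on Avicel and 6.12 on sucrose, whereas in WT all 3 Avicel libraries (27.3, 25.6 and 32.1 FPKM) were above all 3 sucrose libraries, which were at 0. The rule required the WT order of every one of the 93 genes, so the TBGK values alone set NCU05382 apart. Both TBGK values were low, and the gene was no longer counted as lower with a pseudocount of 10, at 4-fold or with at least 1 FPKM in both groups. The difference between the strains was not tested, TBGK has 1 library per medium, and the source of reads within the overlap with NCU05383 is uncertain.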

How the results depend on the processing

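The number of genes kept by the rule followed its settings: 188 with a pseudocount of 0.1, 32 with 10, 41 after quantile normalization, 205 at 8 times sucrose, 37 at 32 times, 52 within 1.5-fold and 94 to 143 with 1 triplicate library left out. Of the 93, 92 were among the 188, 30 among the 32 and 39 among the 41. Counts by limma come from the fit over 13 libraries, which draws its spread from the triplicates that chose the genes and in 5 of these comparisons uses them as the reference, so they are no test. The counts below are of the 93 genes. Their ranges with a library left out are over the 94 to 143 genes then kept, so they partly follow that number. For TBGK Avicel against TBGK sucrose 91 to 134 were higher and 1 lower; the lower count was 0 with a pseudocount of 10, at 4-fold, or with at least 1 FPKM in both groups. For TBGK cellobiose against TBGK sucrose 90 to 137 were higher and 1 lower, or 0 lower with a pseudocount of 10 or at least 1 FPKM. For TBGK cellobiose against TBGK Avicel 46 to 81 were higher and 3 to 6 lower; at 4-fold 19 were higher and 0 lower, and limma over 13 libraries gave 0 and 0. For WT cellobiose against WT sucrose 84 to 129 were higher and 0 to 1 lower; 36 were higher with at least 1 FPKM in both groups, since many genes are at 0 on sucrose, and limma gave 0 lower. Against WT Avicel 1 to 2 were higher and 90 to 126 lower, with 0 higher at 4-fold or by limma. Against WT no carbon 0 to 2 were higher and 92 to 140 lower, with 2 higher after quantile normalization and 0 by limma. For TBGK against WT on Avicel 3 to 6 were higher and 45 to 78 lower; at 4-fold 1 was higher and 13 lower, and by limma 0 and 2. For TBGK against WT on cellobiose 87 to 125 were higher and 0 to 3 lower, and the lower count was 0 with a pseudocount of 10, at 4-fold, by limma or with at least 1 FPKM. For TBGK against WT on sucrose 27 to 50 were higher and 0 to 3 lower. There 42 were higher with a pseudocount of 0.1, 4 with 10, 8 at 4-fold, 5 by limma and 5 with at least 1 FPKM, and 2 were lower with 0.1 or quantile normalization and 0 by limma or with at least 1 FPKM. Over all genes, with a library left out, 2480 to 3383 rose and 1830 to 2268 fell for WT Avicel against sucrose, and 2994 to 3788 rose and 1814 to 2274 fell for no carbon against sucrose. For Avicel against no carbon 206 to 403 rose and 34 to 224 fell, the lowest without WT no carbon replicate 3. Replicate numbers did not pair the samples, since correlations of same-numbered deviations ran from -0.308 to 0.453. With the replicate number as a block 96 genes fell for Avicel against no carbon, in place of 151, and no other count over all genes moved by more than 1.5 times. Of the values of 55 named genes under alternatives, 280 moved by more than the replicate spread, 380 did not and 0 changed sign, and 44 of 840 list counts moved. Causes were not tested unless stated. A planned count of promoter words was not run because no promoter sequence was at hand. Depth limits the lowest genes, many of which are at 0 on sucrose.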
